A study of Homo sapiens with 12 samples.

Results

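SLC2A1 and SLC2A3, which encode the glucose transporters GLUT1 and GLUT3, were followed across 4 ways of culturing AU565, a human breast carcinoma cell line whose ERBB2 (HER2) gene is amplified. The members were the rows of the deposited count table with those symbols, 2 of 16020 rows. They were chosen from their measured levels, with results of these data known, so their values are given as a description and carry no p-value. There were 3 RNA sequencing libraries from each format, 12 in all: flat monolayer, small spheroid, large spheroid, and capsule. The labels give both kinds of spheroid as liquid overlay cultures and name the cells WT. The treatment label is shared by all 12: trastuzumab, the therapeutic antibody to ERBB2, then matrigel at 5%, with RNA extracted at 96 h. All formats received trastuzumab and no untreated library was included. An effect of the antibody that differed between formats therefore cannot be told apart from the format. Whether replicates were grown as separate cultures is not stated in the labels, so p-values reflect only how these libraries spread, possibly for technical reasons.

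GLUT1 and GLUT3 are membrane carriers of the SLC2A family that let glucose move down its concentration gradient into the cell. GLUT1 serves basal uptake in most dividing cells and is the main glucose carrier of many carcinomas. GLUT3 has a higher affinity for glucose, is best known from neurons, and is also found in some tumours. Inside the cell hexokinase phosphorylates the sugar, which traps it for glycolysis. Both genes are known targets of the hypoxia-inducible factors, and their proteins are moved between the surface and internal membranes by endosomal sorting complexes and arrestin-like adaptors.

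SLC2A1 (Entrez gene 6513) lies on the minus strand of chr1:42925353-42958868 and SLC2A3 (Entrez gene 6515) on the minus strand of chr12:7919230-7936187, from RefSeq on GRCh38.p14. Reads were assigned on hg38. Next to SLC2A3, at chr12:7812514-7891196, lies SLC2A14 (GLUT14), a close copy of it. Over aligned coding bases SLC2A14 was identical to SLC2A3 at 96.6% (1440 of 1491), and SLC2A1 was identical to SLC2A3 at 69.1% (1008 of 1458). The stretch below is 1 example, from near the middle of the coding sequences of SLC2A3 and SLC2A14. It is more alike between them than those sequences are as a whole. It spans 90 bases, codons 234 to 263 of SLC2A3, read on the coding strand of GRCh38 at chr12:7929756-7929845 (SLC2A3) and chr12:7827567-7827656 (SLC2A14). Capitals mark the base that differs from SLC2A3.
SLC2A3: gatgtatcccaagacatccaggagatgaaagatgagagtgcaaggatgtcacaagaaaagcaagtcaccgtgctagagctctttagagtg
SLC2A14: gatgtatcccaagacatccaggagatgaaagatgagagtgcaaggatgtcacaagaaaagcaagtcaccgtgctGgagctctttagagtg
SLC2A14 differed from SLC2A3 at 1 of the 90 bases. Of all 50-base windows of the SLC2A3 transcript (3915 bases, GENCODE SLC2A3-201), 23% occurred unchanged in SLC2A14, against 13% of 75-base and 7.05% of 100-base windows. None of these windows occurred in the SLC2A1 transcript (3670 bases, SLC2A1-203). Counts of SLC2A3 and SLC2A14 could therefore be split or shared between the pair, and both are uncertain to that extent.

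**Figure D1:**
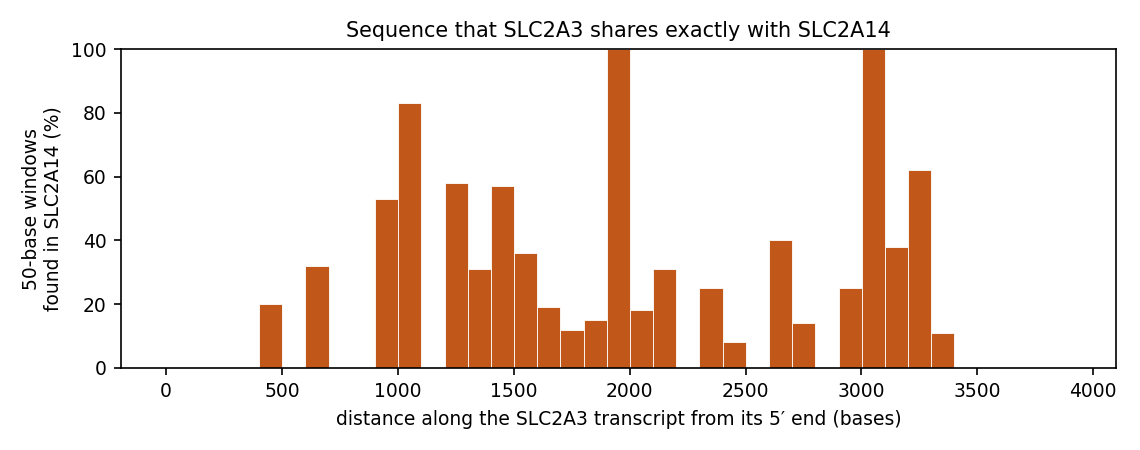
Share of 50-base windows of the SLC2A3 transcript that occur unchanged in SLC2A14, in bins of 100 window starts along the transcript from its 5′ end. The bins at 1901 to 2000 and at 3001 to 3100 bases are shared at 100%, and bins from 3401 bases on share none.

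The RefSeq promoter table held SLC2A1, whose 250 bases before the start are printed below because the hypoxia-inducible, MYC and SP1 factors described later are known regulators of this gene. They lie on the minus strand of GRCh38.p14 at chr1:42958869-42959118. Capitals mark matches to the GC box GGGCGG, the core bound by SP1, on either strand.
SLC2A1 promoter: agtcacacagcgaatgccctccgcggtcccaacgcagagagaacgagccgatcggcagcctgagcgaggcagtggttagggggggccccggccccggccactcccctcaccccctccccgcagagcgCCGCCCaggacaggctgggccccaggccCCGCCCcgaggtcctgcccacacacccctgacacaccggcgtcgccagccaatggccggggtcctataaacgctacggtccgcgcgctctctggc
The printed stretch held 2 GC boxes, starting 123 and 95 bases before the start. The motif GGGCGG occurred in 45% of 35116 promoters of the table, searched on both strands over 300 bases (250 before the start to 50 after). Over the same window the SLC2A1 promoter had 71% GC and 30 CpG, against medians of 58.7% and 14 over all promoters. A hypoxia core (ACGTG or GCGTG) matched 1 time, as GCGTG 26 bases after the start and so beyond the printed stretch, and 48.4% of promoters held a match. The stricter ACGTG (21.4% of promoters), which overlaps the E-box, and the E-box CACGTG (7.26%) had 0 matches in this window. No mark or factor binding was measured here. SLC2A3 has no promoter printed.

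Library totals ran from 13971346 to 24729250 counts, and levels are CPM, counts put on a common library total, after TMM scaling, which corrects library totals for composition. Titles of the monolayer and large spheroid libraries share a mark, UP, that those of small spheroid and capsule lack and whose meaning the labels do not give. Large spheroid against monolayer and capsule against small spheroid are thus the comparisons within 1 kind of title, and what the mark stands for cannot be told apart from the format in the other 4. Capsule replicate 1 stood apart from capsule replicates 2 and 3, with chi-square values per gene of 39.1 and 34.6 against 2.99 between replicates 2 and 3, over 11701 genes. The other formats had values of 2.8 to 12.6. All 18 luminal breast epithelial markers were in the table, with summed levels of 16391 to 27155 CPM. Of these, E-cadherin (CDH1) was at or near 0 in every library, at most 1.81 CPM.

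SLC2A1 was lowest in monolayer, 2.22- and 2.27-fold higher in small and large spheroid, and between them in capsule. Monolayer libraries had 145, 146 and 173 CPM (155 ± 16.2, mean ± SD, n = 3 here and below). Small spheroid libraries had 334, 350 and 347 CPM (343 ± 8.58), and large spheroid libraries had 343, 343 and 370 CPM (352 ± 15.5). Capsule libraries had 223, 296 and 291 CPM (270 ± 41), the low one being replicate 1. The groups overlapped only between small and large spheroid.

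The log2 fold change of SLC2A1 over monolayer was 1.15 ± 0.10 (SE) in small spheroid, a 2.22-fold difference. In large spheroid it was 1.19 ± 0.10 (2.27-fold), and in capsule 0.80 ± 0.10 (1.75-fold). Those 3 comparisons share the monolayer libraries. Large over small spheroid came to 0.04 ± 0.10, less than its SE. Capsule was lower than small spheroid by -0.35 ± 0.10 and lower than large spheroid by -0.38 ± 0.10. Without capsule replicate 1 these became -0.23 and -0.26, and capsule over monolayer became 0.93. The direction over monolayer was the same under each of the alternatives run.

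SLC2A3 was scarce in monolayer, small spheroid and capsule and 8.27- to 12.7-fold higher in large spheroid. Its raw counts were 35, 54 and 21 in monolayer, 27, 22 and 28 in small spheroid, and 23, 14 and 17 in capsule. Large spheroid libraries had 277, 355 and 219 counts. In CPM, monolayer had 1.93, 2.08 and 0.964 (1.66 ± 0.606) and small spheroid had 1.8, 1.67 and 2.14 (1.87 ± 0.245). Capsule had 1.45, 0.963 and 1.2 (1.2 ± 0.246), and large spheroid had 16, 17.8 and 12.6 (15.5 ± 2.65). Every large spheroid library lay above every other library, with its lowest at 12.6 against 2.14 CPM for the highest of the rest.

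**Figure D2:**
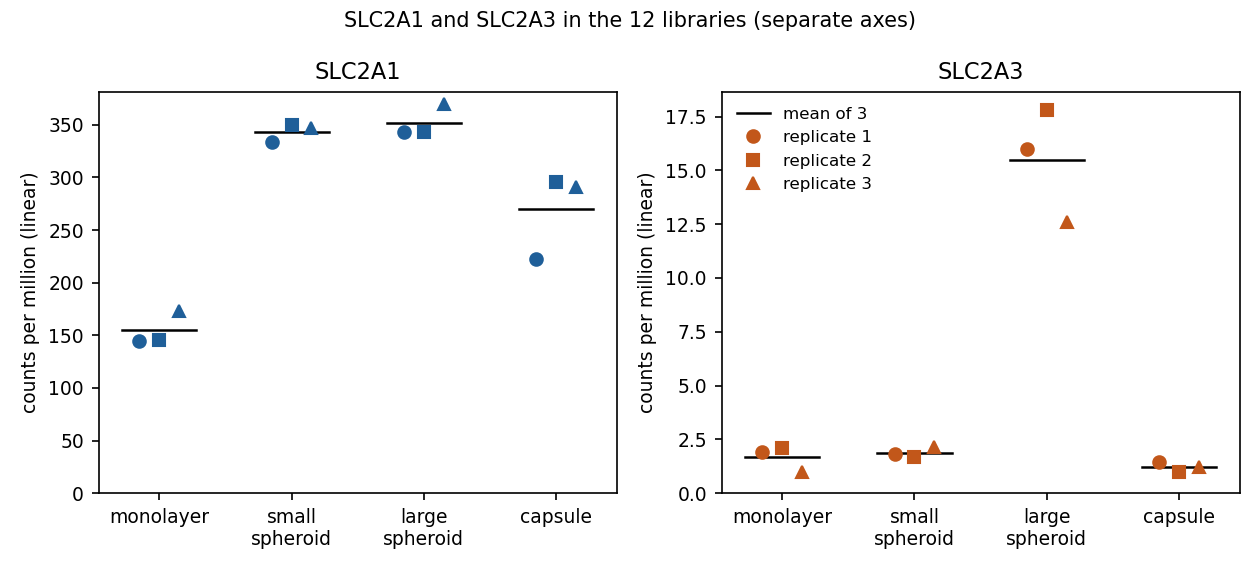
CPM of SLC2A1 (left) and SLC2A3 (right) in the 12 libraries by culture format, on separate linear axes that start at 0. Points are libraries, shaped by replicate number, and bars are means of 3. SLC2A1 is at 223 CPM or more in every library outside monolayer, while SLC2A3 exceeds 2.14 CPM in the large spheroid libraries alone.

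For SLC2A3 the log2 fold change of large spheroid was 3.21 ± 0.22 over monolayer (9.27-fold) and 3.05 ± 0.23 over small spheroid (8.27-fold). Capsule was lower than large spheroid by -3.67 ± 0.25, a 12.7-fold difference. Of the 15175 genes in the fit, 66 had a larger increase than SLC2A3 in large spheroid over monolayer and 71 over small spheroid. For SLC2A1 the same ranks were 1153 and 7337. Small spheroid over monolayer was 0.17 ± 0.28 for SLC2A3 and capsule over monolayer was -0.46 ± 0.30, both with overlapping libraries. The first turned to -0.11 without monolayer replicate 3. Capsule against small spheroid was -0.62 ± 0.31, with no overlap but on 14 to 28 counts per library.

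The distance between the genes was smallest in large spheroid. Per kb of transcript, the level of SLC2A1 was 74.9 to 192 times that of SLC2A3 in the monolayer libraries and 173 to 224 times in small spheroid. In capsule it was 164 to 328 times, and in large spheroid 20.6 to 31.4 times, below the range of each other format. The log2 fold change of SLC2A3 minus that of SLC2A1 was 2.03 for large spheroid over monolayer and 3.01 for large over small spheroid. For capsule over large spheroid it was -3.29. Small spheroid over monolayer gave -0.98 and capsule over monolayer -1.26, so against monolayer the difference had opposite signs in large spheroid and in the other 2 formats. Capsule over small spheroid gave -0.28, which ranged from -0.56 without capsule replicate 1 to -0.07 without capsule replicate 2, with -0.18 without small spheroid replicate 3, and was -0.61 after correction for GC content and length.

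**Figure D3:**
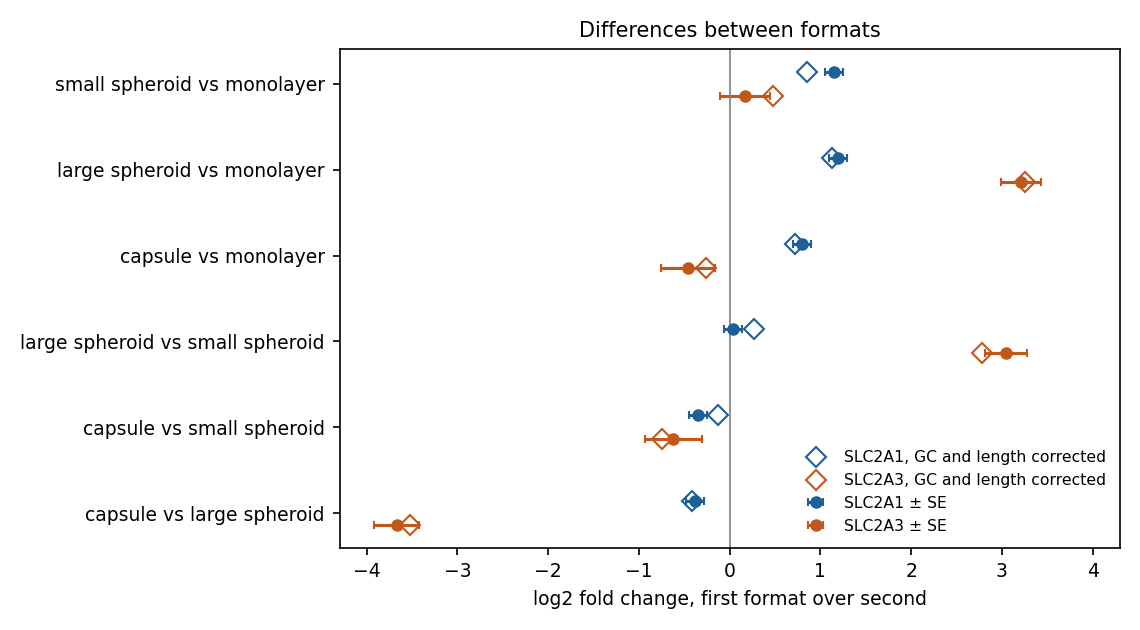
Log2 fold changes of SLC2A1 (blue) and SLC2A3 (orange) in the 6 comparisons, first format over second. Filled points carry SE bars, and hollow diamonds are values after correction for GC content and transcript length. The comparisons of SLC2A3 that include large spheroid differ by 3.05 or more in size, while SLC2A1 stays between -0.38 and 1.19.

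Fold changes of all genes followed GC content in several comparisons, with Spearman's rho of 0.678 across 14638 genes for small spheroid over monolayer, -0.663 for large over small spheroid and 0.195 for large spheroid over monolayer. Genes are not independent replicates, and these values are a description. The SLC2A1 transcript has 54.8% GC and that of SLC2A3 45.8%, against a median of 49.3%. After correction for GC content and length, SLC2A1 was 0.85 in small spheroid over monolayer, 0.27 in large over small spheroid and -0.13 in capsule over small spheroid. SLC2A3 was then 3.26 in large spheroid over monolayer and 2.78 over small spheroid. The difference between the genes in small spheroid over monolayer shrank to -0.37, and in large over small spheroid to 2.51.

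SLC2A3 had its lowest value within monolayer and within large spheroid in replicate 3, where summed cardiac, mesenchymal and melanocyte markers were also lowest, while blood cell markers were not. Cardiac muscle markers (7 of 11 in the table) summed to 187 and 186 CPM in monolayer replicates 1 and 2 and to 2.07 in replicate 3. In large spheroid they summed to 63.4, 50.9 and 4.2 CPM, and in the other formats to 2.53 to 7.19 CPM. MYH6, a cardiac myosin, was at 0 in monolayer replicate 3 and in large spheroid replicate 3. In those libraries SLC2A3 still stood at 0.964 and 12.6 CPM. Mesenchymal markers (16 of 20) summed to 181 to 300 CPM in monolayer and 204 to 267 in large spheroid, with 267 to 325 in small spheroid and 195 to 218 in capsule. Members of this sum moved in different directions. POSTN had 10.7 to 28.6 CPM in monolayer and 12.8 to 21.8 in large spheroid, and at most 0.0632 in the other formats. VIM, GJA1 and TMSB4X were likewise higher in monolayer and large spheroid. LGALS1 instead had 31.7 to 33.5 CPM in those formats, 108 to 131 in small spheroid and 68.1 to 86.3 in capsule, and COL1A1 was also lower in the former. Melanocyte markers (8 of 9) summed to 71.4 to 138 CPM in monolayer, 28.9 to 36.6 in large spheroid and 15 to 25.9 in the rest. Markers of neurons, cells known for GLUT3, and of glia (7 of 10) summed to 35.3 to 47.4 CPM in monolayer. They summed to 21.8 to 24.8 CPM in large spheroid and 15.4 to 19.7 in the rest. Members of this sum also moved in different directions. SYP had 12.1 to 14.3 CPM in monolayer and at most 2.5 in the other formats. TUBB3 was instead lowest in monolayer, at 1.52 to 2.62 CPM, with 5.98 to 7.6 in small spheroid and 5.31 to 7.15 in capsule. Of 12 blood cell markers 3 were in the table, at 51.3 to 55 CPM in large spheroid, 35.6 to 49.9 in monolayer and small spheroid, and 17.4 to 24.8 in capsule. The part of such cells in the SLC2A3 values was not tested beyond these levels. In bulk libraries fewer cells of a type and less RNA per cell cannot be told apart.

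SLC2A14 was the family gene nearest to SLC2A3 in sequence and it too was highest in large spheroid. Its counts were 2, 4 and 5 in monolayer, 14, 8 and 12 in small spheroid, 49, 48 and 52 in large spheroid, and 9, 5 and 2 in capsule. Large spheroid lay above every other format with no overlap. SLC2A14 passed the filter on low counts only through large spheroid, so its differences from that format are a description. It rose in large spheroid over monolayer by 3.98 ± 0.39 and over small spheroid by 1.73 ± 0.33. It also rose in small spheroid over monolayer, by 2.25 ± 0.47 (edgeR, adjusted p = 3.57e-04), where SLC2A3 differed by less than its SE. Capsule was lower than large spheroid by -2.91 ± 0.37 and lower than small spheroid by -1.19 ± 0.44 (edgeR, adjusted p = 0.0331 for the latter). The latter call was lost without small spheroid replicate 1 or 3 (-1.08 and -1.11) and without capsule replicate 2 or 3 (-1.16 and -0.83). Capsule over monolayer was 1.07 ± 0.54 and did not pass (edgeR, adjusted p = 0.0914), but it was called without capsule replicate 3 (1.43; edgeR, adjusted p = 0.0288) and was 0.53 without capsule replicate 1. With the counts of SLC2A3 and SLC2A14 summed, a setting chosen after seeing the data, the log2 fold change of the pair was 3.31 in large spheroid over monolayer, 2.76 over small spheroid and 0.55 in small spheroid over monolayer.

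Among the 11 SLC2A genes of the table SLC2A1 was by far the most abundant per kb in every format. Its share of the summed family level, in CPM per kb, was 51.1 ± 2.1% in monolayer, 63.7 ± 1.42% in small spheroid, 70.4 ± 2.74% in large spheroid and 64.2 ± 3.13% in capsule. SLC2A3 made up 0.524 ± 0.214%, 0.325 ± 0.0461%, 2.9 ± 0.515% and 0.275 ± 0.0863% in the same order. In large spheroid SLC2A3, at 3.95 ± 0.677 CPM per kb, was above SLC2A13 (2.69 ± 0.325), SLC2A6 (1.45 ± 0.167) and SLC2A12 (0.822 ± 0.0743). In the other 3 formats it was below all of these. SLC2A2, SLC2A7 and SLC2A9 were not analysed here.

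**Figure D4:**
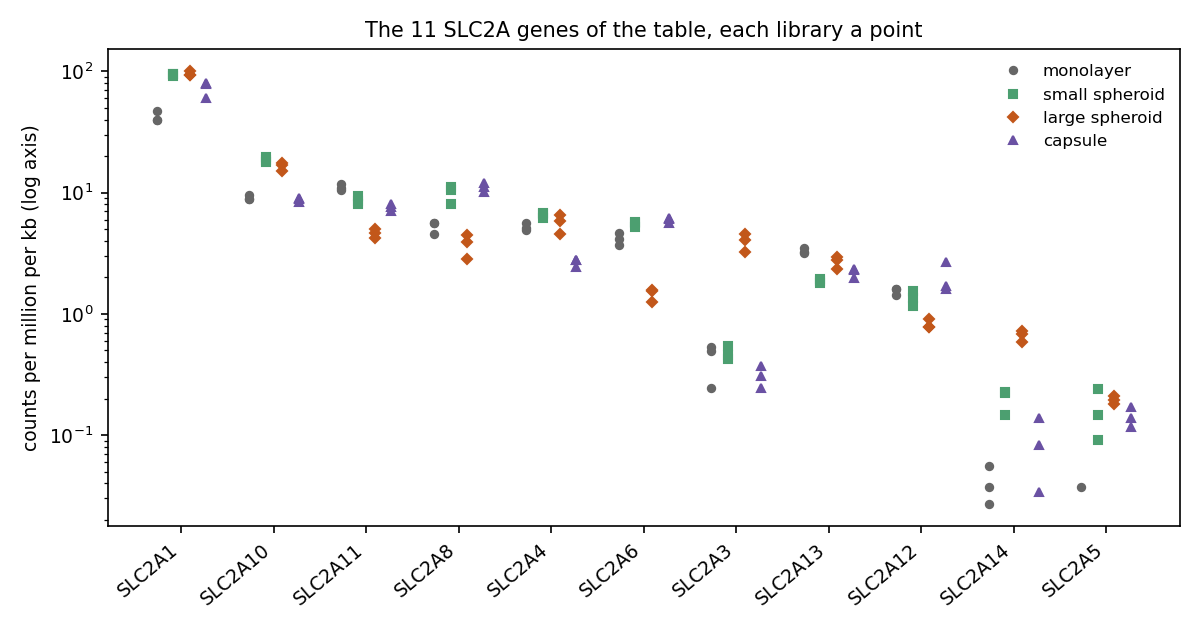
Levels of the 11 SLC2A genes in CPM per kb of transcript on a log axis, each point 1 library and each colour 1 format; libraries at 0 are not drawn. SLC2A1 is the highest gene in all 12 libraries, and SLC2A3 and SLC2A14 are the genes whose large spheroid points stand clear above all their other points.

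Before the other genes are described, the share of all 15175 tested genes called at an adjusted p below 0.05 gives the background. In small spheroid over monolayer 37.0% were called higher and 35.3% lower, in large spheroid over monolayer 28.7% and 28.4%, and in capsule over monolayer 34.5% and 31.5%. In large over small spheroid 32.9% were called higher and 33.4% lower. Capsule over small spheroid gave 27.0% and 25.0%, and capsule over large spheroid 32.1% and 30.6%. Median log2 fold changes of all genes lay between -0.00 and 0.04. Each count below is read against these shares.

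The 9 other SLC2A genes moved in different directions. In small spheroid over monolayer 6 were called higher and 2 lower (median log2 fold change 0.42, against 0.01 over all genes). In large spheroid over monolayer 3 were higher and 5 lower (median -0.30, against -0.00), and in capsule over monolayer 3 were higher and 3 lower (median 0.38, against 0.04). The genes higher in large spheroid included SLC2A5 and SLC2A14. Both passed the filter on low counts only through the large spheroid libraries, so their rise there is a description and not a result to set against the background. SLC2A10 (GLUT10) had 39.8 ± 1.57 CPM in monolayer, 81.9 ± 3.4 in small spheroid, 72.3 ± 5.13 in large spheroid and 38.6 ± 1.52 in capsule. It rose 2.06-fold in small and 1.81-fold in large spheroid over monolayer (edgeR, adjusted p = 4.67e-09 and 8.87e-08), and the capsule difference did not pass (edgeR, adjusted p = 0.617). Of the other family genes none had both spheroid formats above monolayer at over 10 CPM with capsule between, the order seen for SLC2A1.

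SLC2A6 and SLC2A8, intracellular family members, and SLC2A11 were lowest in large spheroid, where SLC2A3 was highest. SLC2A6 had 10.5 ± 1.14 CPM in monolayer, 14 ± 0.673 in small spheroid, 15.1 ± 0.689 in capsule and 3.67 ± 0.422 in large spheroid, and it fell by 1.51 ± 0.13 in large spheroid over monolayer on the log2 scale (edgeR, adjusted p = 5.4e-08). SLC2A8 had 8.16 ± 1.81 CPM in large spheroid and 11.4 ± 1.32 in monolayer (edgeR, adjusted p = 0.0169), against 21.5 ± 3.56 in small spheroid and 24 ± 2.02 in capsule. Its difference between large spheroid and monolayer, -0.48, was no longer called without monolayer replicate 1 or 3 (-0.44 and -0.43) or large spheroid replicate 3 (-0.32). SLC2A11 fell by 1.26 ± 0.10 in large spheroid over monolayer, from 36.3 ± 1.95 to 15.1 ± 1.27 CPM (edgeR, adjusted p = 1.21e-08), with 28.2 ± 2.17 in small spheroid and 24.7 ± 1.8 in capsule. After GC and length correction SLC2A6 turned to -0.62 in small spheroid over monolayer and SLC2A8 to -0.05, so their rise there depended on that setting. SLC2A12 likewise fell in large spheroid, to 3.67 ± 0.332 from 6.91 ± 0.452 CPM in monolayer (edgeR, adjusted p = 6.67e-04).

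SLC2A4 (GLUT4), the insulin-responsive carrier of muscle and fat, was lowest in capsule, at 9.14 ± 0.662 CPM against 17.9 ± 1.2 in monolayer, 22.4 ± 0.95 in small spheroid and 19.3 ± 3.43 in large spheroid. It fell by 0.97 ± 0.13 in capsule over monolayer (edgeR, adjusted p = 4.89e-06). SLC2A13, a proton-coupled inositol carrier, fell against monolayer in each format, from 23.2 ± 1.07 CPM to 13.1 ± 0.512, 18.8 ± 2.28 and 15.5 ± 1.39 in small spheroid, large spheroid and capsule. With GC and length correction its fold changes turned to 0.27, 0.01 and 0.10, and its call in large spheroid, at -0.30, was also lost without monolayer replicate 1 (-0.26) or large spheroid replicate 1 (-0.20). SLC2A5 (GLUT5), a fructose carrier, had 4 counts in all 3 monolayer libraries together, against 28, 44 and 26 in small spheroid, large spheroid and capsule. SLC2A1-DT, the divergent neighbour of SLC2A1, named after its values were seen, had 0.487 ± 0.184 CPM in monolayer and 1.11 ± 0.387 in large spheroid (edgeR, adjusted p = 0.0138). Small spheroid, at 0.757 to 1.15 CPM, and capsule, at 0.695 to 1.13, lay within the range of large spheroid, 0.69 to 1.45. SLC2A1-DT could share reads with SLC2A1 where counting ignored strand.

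Of 12 tested sodium-coupled and other sugar transporters, 3 were called higher and 5 lower in small spheroid over monolayer, 2 and 4 in large spheroid, and 1 and 6 in capsule (2 and 5 after GC and length correction). SLC37A1, a sugar phosphate carrier of internal membranes, rose from 79.6 ± 4.72 CPM in monolayer to 132 ± 7.41 in small spheroid and 129 ± 14.4 in capsule, with 95.2 ± 3.63 in large spheroid. SLC5A3, a sodium-coupled inositol carrier, was highest in large spheroid at 80.2 ± 4.87 CPM, against 61.6 ± 4.22 in monolayer, 45.8 ± 4.65 in small spheroid and 47.2 ± 10.8 in capsule. Its fall in small spheroid over monolayer (-0.43) turned to 0.63 after GC and length correction, and large over small spheroid (0.81) became 0.09 (edgeR, adjusted p = 0.366). Large spheroid over monolayer, 0.38, was no longer called without monolayer replicate 3 or large spheroid replicate 3 (0.33 in both). MFSD4B fell by 1.26 ± 0.18 in small spheroid over monolayer, and SLC45A4 by 0.69 ± 0.11 in large spheroid (edgeR, adjusted p = 6.14e-06 and 5.56e-05). In capsule over small spheroid the largest named changes were -0.35 for SLC50A1 and -0.32 for SLC37A4, the latter turning to 0.01 after GC and length correction.

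Past the transporters come the enzymes that phosphorylate glucose, release it, or set the rate of the next steps. HK2, the inducible hexokinase, had 472 ± 16.5 CPM in monolayer, 478 ± 19.2 in small spheroid, 768 ± 41.9 in large spheroid and 318 ± 44.8 in capsule. It rose in large spheroid by 0.70 ± 0.09 over monolayer and 0.68 ± 0.09 over small spheroid (edgeR, adjusted p = 5.09e-06 and 5.17e-06), and small spheroid over monolayer, 0.02 ± 0.09, did not pass. PFKFB3, which makes the activator of phosphofructokinase, had 32.4 ± 0.526, 40.9 ± 3.29, 73 ± 3.07 and 32.6 ± 2.4 CPM in monolayer, small spheroid, large spheroid and capsule. Its rise in large spheroid was 1.17 ± 0.08 over monolayer and 0.84 ± 0.08 over small spheroid (edgeR, adjusted p = 4.18e-09 and 2.24e-07). Both genes thus had their maximum in large spheroid, as did SLC2A3. PFKFB4, a related enzyme, had 12 ± 1.26, 26.8 ± 3.83, 27.7 ± 2.08 and 15.7 ± 1.7 CPM in the same order, with capsule between monolayer and the spheroids, as for SLC2A1. It rose by 1.16 ± 0.12 in small and 1.21 ± 0.12 in large spheroid over monolayer (edgeR, adjusted p = 2.4e-07 and 2.81e-07). PFKFB4 in capsule over monolayer, 0.39 (edgeR, adjusted p = 0.0128), was no longer called with GC and length correction (0.25) or without monolayer replicate 2 or capsule replicate 2 (0.31 in both).

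HK1, the constitutive hexokinase, ranged from 333 ± 13.4 CPM in monolayer to 422 ± 7.85 in small spheroid (log2 0.34 ± 0.08, edgeR, adjusted p = 6.55e-04), with 358 ± 10.8 in large spheroid and 342 ± 32.1 in capsule. G6PC3, a glucose-6-phosphatase, had 69.5 ± 2.25 CPM in small spheroid, 56.3 ± 6.24 in capsule, 36.7 ± 3.53 in monolayer and 28 ± 0.774 in large spheroid. After GC and length correction G6PC3 was no longer called against monolayer in small spheroid (0.02; edgeR, adjusted p = 0.828) or capsule (0.00; edgeR, adjusted p = 0.959). PFKFB2 fell by 0.54 ± 0.09 in small spheroid over monolayer, which turned to 0.05 after GC and length correction, and ADPGK rose by 0.52 ± 0.10 in capsule over small spheroid. Across the list of 10 tested genes, 4 were called higher and 5 lower in small spheroid over monolayer, 3 and 4 in large spheroid, 2 and 4 in capsule, and 5 and 4 in large over small spheroid. After GC and length correction these were 2 and 4, 3 and 3, 1 and 4, and 5 and 2. Median log2 fold changes over monolayer were -0.17, 0.08 and -0.07.

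Of 20 genes for the traffic and stability of glucose transporters, 7 were called higher and 9 lower in small spheroid over monolayer, 7 and 6 in large spheroid, and 6 and 9 in capsule. After GC and length correction 10 were higher and 5 lower in small spheroid, so that split depended on the setting. The arrestin-like proteins TXNIP and ARRDC4, known to bring GLUT1 in from the surface, did not have the order of SLC2A1. TXNIP had 110 ± 22.7 CPM in monolayer, 175 ± 10.5 in small spheroid, 101 ± 25.9 in large spheroid and 99.9 ± 10.7 in capsule. It rose in small spheroid by 0.66 ± 0.16 over monolayer (edgeR, adjusted p = 0.00147), and large spheroid and capsule over monolayer did not pass (edgeR, adjusted p = 0.527 and 0.436). ARRDC4 had 16.7 ± 3.72 CPM in monolayer, 12.4 ± 2.3 in small spheroid, 9.45 ± 0.92 in capsule and 7.15 ± 0.634 in large spheroid, where it fell by 1.23 ± 0.17 (edgeR, adjusted p = 8.67e-06). ARRDC3, a related adaptor, instead had its maximum in large spheroid, at 46.6 ± 2.66 CPM against 12.8 ± 2.39, 9.32 ± 1.62 and 9.8 ± 0.837 in monolayer, small spheroid and capsule. It rose by 1.86 ± 0.13 over monolayer and 2.32 ± 0.14 over small spheroid (edgeR, adjusted p = 4.1e-09 and 1.43e-09).

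Stomatin (STOM), a membrane protein that binds GLUT1, fell from 340 ± 14.1 CPM in monolayer to 156 ± 17.6 in small spheroid, 179 ± 0.475 in large spheroid and 129 ± 3.41 in capsule (edgeR, adjusted p = 2.44e-09, 4.56e-08 and 3.72e-10). Its direction over monolayer was thus opposite to that of SLC2A1. The kinase AKT1, which promotes surface GLUT1, rose by 1.15 ± 0.08 in small spheroid and 0.97 ± 0.08 in capsule over monolayer, and large spheroid did not pass (edgeR, adjusted p = 2.36e-09, 2.24e-08 and 0.0733). GIPC1, a GLUT1-binding PDZ protein, had 211 ± 10.3 CPM in small spheroid and 225 ± 15 in capsule, against 129 ± 9.43 in monolayer and 104 ± 1.33 in large spheroid. For GIPC1 the difference of large from small spheroid, -1.02, became -0.11 after GC and length correction (edgeR, adjusted p = 0.177). BSG, the chaperone of lactate carriers, was highest in small spheroid at 662 ± 21.1 CPM, against 305 ± 27.8 in monolayer, 378 ± 9.68 in large spheroid and 358 ± 32.6 in capsule. Of the retromer and its partners, VPS26A fell by 1.40 ± 0.11 in small spheroid and TBC1D5 by 1.43 ± 0.09 in capsule over monolayer. VPS29 rose by 0.74 ± 0.13 in capsule over small spheroid, and the energy-sensing kinase subunit PRKAA1 by 1.12 ± 0.09 in large over small spheroid.

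Of 19 tested transcription factors known for glucose transporter genes, not all of them for SLC2A1 or SLC2A3, 8 were called higher and 8 lower in small spheroid over monolayer. In large spheroid 7 were higher and 5 lower, and in capsule 5 and 10. MYC had 100 ± 5.57 CPM in monolayer, 268 ± 15.8 in small spheroid, 271 ± 12.2 in large spheroid and 196 ± 32.9 in capsule, the order of SLC2A1. It rose over monolayer by 1.41 ± 0.10, 1.43 ± 0.10 and 0.97 ± 0.10 (edgeR, adjusted p = 2.99e-09, 5.06e-09 and 3.51e-07). Without GC and length correction the mRNAs of the hypoxia-inducible factors were highest in monolayer, where both transporters were low. HIF1A had 214 ± 13.2, 110 ± 6.08, 130 ± 5.64 and 137 ± 50.5 CPM in monolayer, small spheroid, large spheroid and capsule, and EPAS1 had 562 ± 3.25, 325 ± 16.6, 212 ± 6.3 and 293 ± 33.4. EPAS1 fell by 1.41 ± 0.08 in large spheroid over monolayer (edgeR, adjusted p = 4.21e-10). HIF1A fell by 0.95 ± 0.16 in small and 0.72 ± 0.16 in large spheroid (edgeR, adjusted p = 4.95e-05 and 0.001), and the small spheroid value turned to 0.07 after GC and length correction. In capsule over monolayer HIF1A was at -0.64, which became -0.16 after that correction and was no longer called (edgeR, adjusted p = 0.158). Capsule replicate 1 had 195 CPM of HIF1A, against 111 and 104 in replicates 2 and 3. The proteins of these factors were not measured.

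MLXIPL, a glucose-sensing factor also known as ChREBP, had its maximum in small spheroid at 55.6 ± 4.62 CPM, against 14 ± 0.634 in monolayer, 25.1 ± 5.04 in large spheroid and 29.9 ± 0.705 in capsule. SP1 had 292 ± 10.4 CPM in monolayer and fell to 127 ± 1.25, 198 ± 10.4 and 125 ± 4.57 in small spheroid, large spheroid and capsule. KLF15 fell by 1.65 ± 0.13 in capsule over small spheroid. In large over small spheroid HMGA1 fell by 0.98 ± 0.12 and NFE2L2 rose by 0.92 ± 0.09.

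The hypoxia-inducible genes, without the transporters, were mostly higher in spheroids. Of 25 genes, 20 were called higher and 2 lower in small spheroid over monolayer (median 0.69), 22 and 0 in large spheroid (median 1.85), and 12 and 3 in capsule (median 0.50). Large over small spheroid gave 17 higher and 0 lower (median 0.75). The count of 0 lower was from edgeR, and it was also 0 at an unadjusted p below 0.05, with DESeq2 and with limma-voom in both comparisons. After GC and length correction large over small spheroid gave 17 higher and 1 lower. In capsule 3 were higher and 16 lower than in small spheroid (1 and 18 after GC and length correction), and 1 higher and 21 lower than in large spheroid. Without capsule replicate 1, 18 rather than 15 genes were called in capsule over monolayer and 24 rather than 22 over large spheroid.

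Some genes of the list were close between the spheroid formats. PPFIA4 had 1.04 ± 0.105, 33.8 ± 2.66, 39.5 ± 6.31 and 12 ± 1.8 CPM in monolayer, small spheroid, large spheroid and capsule. CA9, the carbonic anhydrase often used as a hypoxia marker, had 1.16 ± 0.236, 13.7 ± 3.75, 11.1 ± 1.65 and 5.08 ± 1.21. NDRG1 had 340 ± 16.1, 2318 ± 266, 2605 ± 73.9 and 926 ± 177 CPM. PPFIA4, CA9 and NDRG1 did not pass in large over small spheroid (edgeR, adjusted p = 0.115, 0.177 and 0.204). EGLN3 and ANKRD37 were instead higher in large than in small spheroid, with no overlap. EGLN3, an oxygen-sensing hydroxylase, rose by 3.83 ± 0.16 in small and 4.45 ± 0.16 in large spheroid over monolayer. Its libraries had 128 to 177 CPM in small and 212 to 240 in large spheroid. ANKRD37 rose by 4.63 ± 0.22 in large spheroid over monolayer, to 11.8 to 13.3 CPM, with 6 to 7.72 in small spheroid.

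Other genes of the list rose further in large spheroid. ADM, the vasodilator adrenomedullin, had 9.05 ± 0.441, 17.7 ± 4.12, 74.8 ± 6.19 and 14.8 ± 1.78 CPM in monolayer, small spheroid, large spheroid and capsule. ERO1A, an oxidase of the endoplasmic reticulum, had 86 ± 2.07, 161 ± 4.07, 543 ± 21 and 130 ± 4.95, and P4HA1, a collagen prolyl hydroxylase, had 204 ± 4.73, 397 ± 52.2, 1311 ± 41.5 and 330 ± 54.8. ADM, ERO1A and P4HA1 rose in large over small spheroid by 2.08 ± 0.13, 1.75 ± 0.07 and 1.72 ± 0.11 (edgeR, adjusted p = 2.21e-09, 2.39e-11 and 1.91e-09), beside 3.05 ± 0.23 for SLC2A3 and 0.04 ± 0.10 for SLC2A1. All 3 also rose in small spheroid over monolayer, by 0.97 ± 0.14, 0.91 ± 0.07 and 0.96 ± 0.11 (edgeR, adjusted p = 1.22e-05, 4.94e-09 and 3.98e-07), where SLC2A3 was 0.17 ± 0.28. MXI1, a MYC antagonist, was 2.05 ± 0.09 lower in capsule than in large spheroid.

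**Figure D5:**
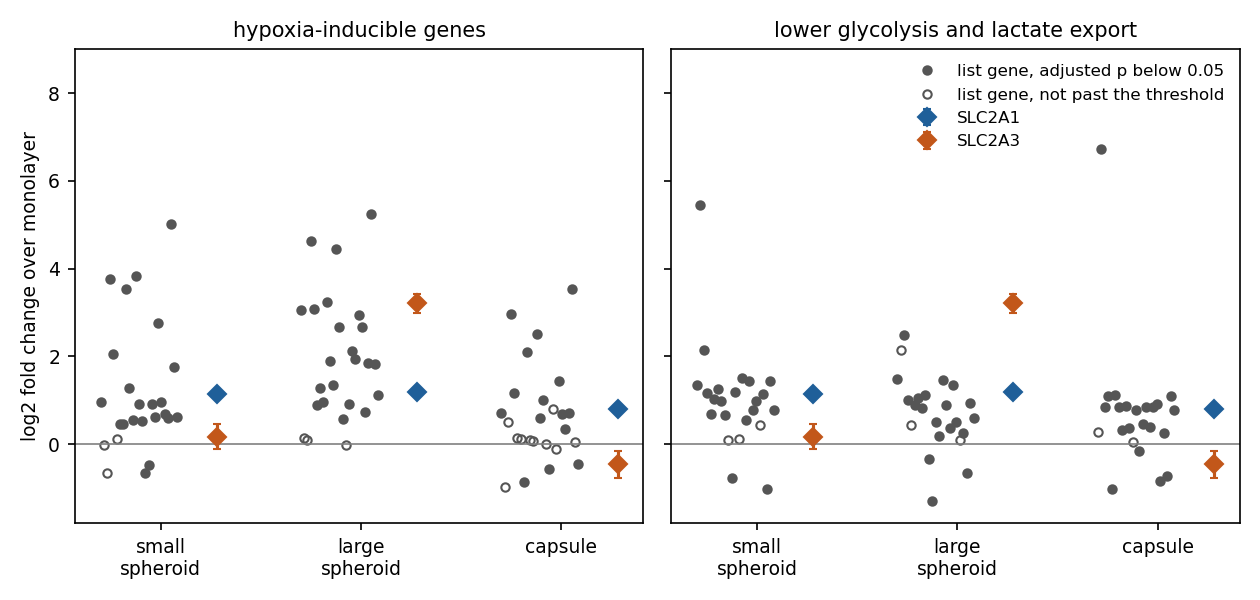
Log2 fold changes over monolayer of hypoxia-inducible genes (left) and of genes for lower glycolysis and lactate export (right), with SLC2A1 and SLC2A3 as diamonds with SE bars. Circles are genes, hollow where the adjusted p was not below 0.05, and 22 of 25 hypoxia-inducible genes are filled and above 0 in large spheroid.

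Of 23 tested genes of lower glycolysis and lactate export, 18 were called higher and 2 lower in small spheroid over monolayer (median 0.98), 17 and 3 in large spheroid (median 0.83), and 17 and 4 in capsule (median 0.77). GAPDH had 3050 ± 116, 7264 ± 554, 6366 ± 195 and 5490 ± 63 CPM in monolayer, small spheroid, large spheroid and capsule. LDHA, which makes lactate, had 1062 ± 26.5, 1683 ± 192, 2293 ± 286 and 1929 ± 424, and ALDOC, an aldolase, had 31.5 ± 1.27, 139 ± 15.9, 177 ± 7.04 and 56.7 ± 7.75. ENO1 had 1308 ± 72.2 CPM in monolayer and 2779 ± 195 in capsule, and PKM had 968 ± 20.2 and 1833 ± 156. SLC16A3 (MCT4), the lactate exporter, was highest in small spheroid at 602 ± 5.58 CPM, against 272 ± 28.6 in monolayer, 325 ± 19.6 in large spheroid and 326 ± 30.5 in capsule.

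Between the formats other than monolayer the list divided. In large over small spheroid 5 were called higher and 8 lower, which became 9 and 6 after GC and length correction. In capsule over small spheroid 4 were higher and 11 lower, and in capsule over large spheroid 6 and 9 (4 and 12 after that correction). PFKP and ALDOA, like ALDOC, had capsule between monolayer and the spheroids. PFKP had 64.3 ± 5.49, 182 ± 6.6, 177 ± 6.08 and 88.7 ± 14.9 CPM, and ALDOA had 1799 ± 132, 4615 ± 229, 5064 ± 358 and 2165 ± 512, though ALDOA in capsule over monolayer did not pass (edgeR, adjusted p = 0.0755). ENO3 rose by 1.13 ± 0.09 in capsule over monolayer. PGAM2 fell by 1.10 ± 0.09 and PFKL by 0.68 ± 0.10 in large over small spheroid, the latter turning to 0.08 after GC and length correction.

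Likeness of profile was measured as the root-mean-square distance between log2 CPM values over the 12 libraries, each profile centred on its own mean, among 9397 genes with a mean of at least 10 CPM. The 5 genes nearest to SLC2A1 were VPS4A (distance 0.0877), CGNL1 (0.0938), INAFM2 (0.102), ECE1 (0.103) and PPFIBP2 (0.112), against a median distance of 0.605. VPS4A had 38.8, 76.2, 83.9 and 63.1 CPM in monolayer, small spheroid, large spheroid and capsule. Nearest to SLC2A3, among 9398 genes, were ANXA3 (0.589), ADM (0.618), the mitochondrial transfer RNA TRNN (0.627), ARRDC3 (0.639) and ERO1A (0.646), against a median of 1.49. ANXA3 had 9.62, 7.7, 45.4 and 9.9 CPM in the same order. SLC2A1 and SLC2A3 were 1.31 apart. The distances share the same 12 libraries and carry no test.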

How the data were processed

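The data were RNA sequencing libraries of AU565 cells in 4 culture formats, 3 libraries each. The authors deposited 1 table of raw read counts per Entrez gene, with 16020 rows. The submitters' processing notes name featureCounts, hg38 and limma, and the column headers name subread. Not given in the sources used here were tool versions, annotation release and strand setting. The column of capsule replicate 1, whose name is spelled differently, was matched by format and number. Rows without a symbol numbered 164 and held 0.0705% of counts; they were kept.

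The test was edgeR 4.0.16 (R 4.3.3): filterByExpr with a minimum count of 10, TMM scaling, a single quasi-likelihood fit over the 12 libraries, a coefficient for each format, and Benjamini-Hochberg adjustment over 15175 genes in each of 6 comparisons. SE was taken as the fold change over the root of the F statistic. Adjusted p-values are from this test unless another tool is named. Precision is limited by 3 libraries per format and, for SLC2A3, by as few as 14 counts. Members and gene lists were chosen with earlier results of these data known. Named genes were both members, up to 3 called genes per list and comparison with at least 10 CPM and no overlap, a fixed set in every comparison (TXNIP, ARRDC4, HK1, HK2, HIF1A, EPAS1, MYC, PFKFB3, PFKFB4, CA9, GAPDH, LDHA, SLC16A3), every tested SLC2A gene, and the 5 genes nearest to each member in log2 CPM (prior count 2). Lengths and GC content came from GENCODE 29 (15394 rows, 96.1%), positions from RefSeq GRCh38.p14 (15851 rows, 98.9%). The GC and length correction fitted splines per library over 14638 genes. Alternatives were library totals, DESeq2 size factors, upper-quartile scaling, DESeq2 1.42.0, limma-voom 3.58.1, no filter, 2 formats alone, replicate number as a block, and each library left out. The fit was tested on simulated data.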

Additional observations from a re-analysis of the deposited data

How the results depend on the processing

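SLC2A1 in small spheroid over monolayer was 1.15, and 1.0 with library totals, 0.85 with GC and length correction and 0.86 with the replicate block and that correction; in large over small spheroid it was 0.04, and 0.15, 0.27 and 0.27. The difference SLC2A3 minus SLC2A1 in large over small spheroid was 3.01, and 2.51 with GC and length correction and 2.50 with the replicate block added. Every other fold change of SLC2A1 and SLC2A3 moved by less than the spread of its libraries under each alternative run. Leaving out 1 library in turn gave 2.94 to 3.44 for SLC2A3 in large spheroid over monolayer and 1.1 to 1.24 for SLC2A1 in small spheroid over monolayer.

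The replicate numbers did not pair the libraries across all formats: 2 of 18 same-numbered pairs correlated above 0.1 (range -0.215 to 0.217). Both were pairs of monolayer with large spheroid, at 0.154 for replicate 2 and 0.217 for replicate 3, with 0.0895 for replicate 1. Whether the numbers pair those formats was not tested further. Of 12 libraries, 0 correlated best with their own number in every other format at once, and matches in fewer formats were not counted. The replicate block alone gave 1.15 for SLC2A1 in small spheroid over monolayer and 3.22 for SLC2A3 in large spheroid over monolayer.

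Of list counts, the 8 sodium-coupled and other sugar transporters called in large over small spheroid became 3 with GC and length correction, with or without the replicate block, and the 7 in capsule over large spheroid became 4 with only those formats fitted. The 4 SLC2A genes called in capsule over small spheroid became 2 with only those formats fitted, and the 9 traffic genes there became 14 with the replicate block and GC and length correction. Leaving out 1 library gave 4 to 8 (7 with all) sodium-coupled and other sugar transporters in capsule over monolayer, 3 to 6 (5 with all) over small spheroid and 3 to 6 (7 with all) over large spheroid. It gave 3 to 7 (6 with all) phosphorylation genes in capsule over monolayer, lowest without capsule replicate 2, and 2 to 4 SLC2A genes in capsule over small spheroid, lowest without small spheroid replicate 3. With library totals the all-gene median moved to -0.15 in small spheroid over monolayer, 0.11 in large over small spheroid and 0.12 in capsule over small spheroid, and the share of called genes that were higher in the last moved from 51.9% to 62.9%.

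GC and length correction, with or without the replicate block, turned the direction of these differences among those called in at least one of the fits (value without, then with the block). In small spheroid over monolayer these were ARRDC4 (0.07, 0.08), HIF1A (0.07, 0.07), SLC2A13 (0.27, 0.27), SLC2A4 (-0.12, -0.12), SLC2A12 (0.53, 0.52), SLC2A8 (-0.05, -0.06), SLC2A6 (-0.62, -0.62), SLC5A3 (0.63, 0.63) and PFKFB2 (0.05, 0.05). In large spheroid over monolayer it was SLC2A13 (0.01, 0.01). In capsule over monolayer they were SLC2A13 (0.10, 0.10), SLC2A6 (-0.02, -0.02) and SLC16A3 (-0.07, -0.07). In large over small spheroid they were HIF1A (-0.55, -0.55), GAPDH (0.37, 0.37), SLC2A13 (-0.27, -0.27) and PFKL (0.08, 0.08), and, with the block, SLC37A1 (0.00). In capsule over small spheroid they were SLC37A4 (0.01, 0.01) and HIF1A (-0.23, -0.24), the latter called only with the block. In capsule over large spheroid they were SLC2A13 (0.09, 0.09) and SLC16A3 (-0.18, -0.18). HIF1A, at 0.08 there, ranged from -0.27 without capsule replicate 1 to 0.24 without capsule replicate 3. Some differences called in none of those fits also changed sign with the correction, among them CA9 in large over small spheroid (-0.30 to 0.37), EPAS1 in capsule over small spheroid (-0.15 to 0.04), and TXNIP in capsule over monolayer (-0.15 to 0.06) and over large spheroid (-0.02 to 0.13). The cause was not tested. Of the 5 genes most like SLC2A1, 2 were also nearest over the 4 format means, and of those most like SLC2A3, 4 were. At 14 to 54 counts per library outside large spheroid, depth limits what can be said of SLC2A3 there.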
